A study of Mus musculus with 9 samples.

Results

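The retina of albino mice kept in relative darkness was described from 3 microarrays, the control arrays of a series of 9, and 18193 genes were ranked by their signal on them. The controls were female BALB/c mice (the labels write Babl/c), given as 10 weeks old, which spent 14 days in what the labels call a dark environment. The labels state 12 h with the lamps on per day for all mice of the study and no illuminance for the controls, which leaves the brightness of their surroundings unstated. Each array was hybridised with RNA from a pool of 3 right-eye retinas of the neurosensory layer, taken off the pigment epithelium, and the labels call the arrays biological replicates, so n = 3 pools throughout. No genetic modification is named in the labels, and pooling means that differences between single mice cannot be read. BALB/c mice lack melanin because of a defect of tyrosinase, so their eyes have no screening pigment.

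The vertebrate retina turns light into nerve signals in rods and cones, whose outer segments hold stacks of membrane with opsin. Light drives a cascade from opsin through transducin to a phosphodiesterase that breaks down cyclic GMP, so that cation channels close and less glutamate is released at ribbon synapses onto bipolar and horizontal cells. Amacrine cells modify that signal, ganglion cells send it to the brain, and Müller glia span all layers and recycle transmitter and retinoids. The mouse retina is dominated by rods.

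A gene was represented by the probe set with the highest mean log2 signal on the 3 arrays among those annotated with its symbol alone. Signals are on a log2 scale, scaled by the authors to a common trimmed mean per array, and values of a gene are given in the order controls 1, 2 and 3. Different probe sets bind with different strength, so a rank is a rank of signal and not of transcript number. Among the 9010 genes with at least 2 such probe sets, the highest and lowest probe set differed by more than 2 in 5727 (63.6%). A mean of at least 11.31 (the 90th percentile of the genes) was called high, which 10% of all genes reached, and a mean under 6.04 (the 40th percentile of all probe sets) was called dim, which held for 30.2% of all genes. Retinas were measured whole, so fewer cells of a type and less RNA per cell cannot be told apart.

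The arrays were close in their medians (6.90, 6.98 and 6.95), and control 3 stood apart. Over the 12699 genes that were not dim, which are not independent replicates, Pearson correlations were 0.982 between controls 1 and 2, 0.962 between 1 and 3 and 0.958 between 2 and 3. That filter rests on a mean that holds control 3. Over all 18193 genes, with values under the dim limit raised to it, the correlations were 0.993, 0.982 and 0.980. Over genes that were not dim on the array outside each pair they were 0.970, 0.963 and 0.956, so the gap between the pairs was smaller there. Lens crystallins were among the brightest genes of control 3 and not of the others. Results that control 3 moves are therefore given also without it. The 3' minus 5' difference of control probe sets, a measure of RNA and labelling quality, was -0.23, -0.36 and -0.17 for Gapdh and 0.90, 0.75 and 1.02 for beta-actin. Control 3 was highest in both, and the part of this in its differences from the other arrays was not tested. Xist, the X-inactivation RNA, gave 14.01, 14.02 and 14.21 and the Y-linked genes Kdm5d, Uty and Eif2s3y were dim, as the female label has it.

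Sequences around the start of transcription are shown for genes that carry both main patterns of these arrays: bright rod genes, and lens crystallins that were bright in control 3 alone. The first 3 promoters belong to the rod arrestin gene Sag, the rod transducin gamma subunit gene Gngt1 and Guca1a, which encodes an activator of guanylate cyclase. Each runs 5′ to 3′ on the strand of the gene, from 250 bases before to 50 bases after a RefSeq start in build GRCm38.p6. The annotated span of each of these 3 genes begins further upstream, so the start used is not the outermost one. Capitals mark TAATCC (here as its reverse complement), a core bound by homeodomain factors such as CRX. The Sag window is chr1:87803430-87803729 on the plus strand, the Gngt1 window chr6:3993758-3994057 on the plus strand and the Guca1a window chr17:47400557-47400856 on the minus strand.
Sag: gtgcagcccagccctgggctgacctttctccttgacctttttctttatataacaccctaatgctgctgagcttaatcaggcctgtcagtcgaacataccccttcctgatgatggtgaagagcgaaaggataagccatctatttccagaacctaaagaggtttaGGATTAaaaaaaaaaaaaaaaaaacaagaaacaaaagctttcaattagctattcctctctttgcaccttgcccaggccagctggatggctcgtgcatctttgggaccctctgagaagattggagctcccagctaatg
Gngt1: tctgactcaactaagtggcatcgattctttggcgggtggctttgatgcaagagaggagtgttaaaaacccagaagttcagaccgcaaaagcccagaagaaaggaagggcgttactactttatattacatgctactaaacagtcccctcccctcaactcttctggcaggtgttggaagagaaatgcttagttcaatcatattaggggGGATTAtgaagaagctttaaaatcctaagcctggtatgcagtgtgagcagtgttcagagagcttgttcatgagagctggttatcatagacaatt
Guca1a: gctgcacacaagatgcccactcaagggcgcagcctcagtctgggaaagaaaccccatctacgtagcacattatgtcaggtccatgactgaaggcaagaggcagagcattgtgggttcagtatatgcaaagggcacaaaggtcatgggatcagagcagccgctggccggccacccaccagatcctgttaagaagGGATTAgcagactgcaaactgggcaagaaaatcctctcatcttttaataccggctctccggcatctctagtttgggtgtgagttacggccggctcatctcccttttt

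The other 3 promoters belong to alphaA-crystallin (Cryaa), betaA3/A1-crystallin (Cryba1) and betaB1-crystallin (Crybb1), structural proteins of the lens. Capitals mark TGCTGAC, the core of the response element of MAF proteins, which switch on crystallin genes. The Cryaa window is chr17:31677681-31677980 on the plus strand, the Cryba1 window chr11:77725244-77725543 on the minus strand and the Crybb1 window chr5:112255570-112255869 on the plus strand.
Cryaa: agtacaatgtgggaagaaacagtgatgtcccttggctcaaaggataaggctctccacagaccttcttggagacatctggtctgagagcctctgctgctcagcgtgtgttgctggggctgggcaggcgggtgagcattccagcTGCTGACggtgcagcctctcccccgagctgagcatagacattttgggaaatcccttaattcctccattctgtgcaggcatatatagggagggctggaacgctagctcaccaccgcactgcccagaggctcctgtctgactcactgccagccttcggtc
Cryba1: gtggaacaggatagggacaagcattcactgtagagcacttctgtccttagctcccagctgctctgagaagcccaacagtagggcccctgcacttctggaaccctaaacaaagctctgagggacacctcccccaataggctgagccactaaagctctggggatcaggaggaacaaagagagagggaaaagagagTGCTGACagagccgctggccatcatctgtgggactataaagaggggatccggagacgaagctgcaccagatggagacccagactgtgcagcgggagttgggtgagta
Crybb1: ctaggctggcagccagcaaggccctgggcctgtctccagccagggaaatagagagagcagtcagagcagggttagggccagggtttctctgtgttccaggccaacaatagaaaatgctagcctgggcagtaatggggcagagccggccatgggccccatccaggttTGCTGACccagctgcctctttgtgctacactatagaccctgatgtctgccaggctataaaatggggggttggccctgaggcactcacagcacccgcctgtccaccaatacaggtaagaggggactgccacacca

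TAATCC was searched as these letters on both strands. It was found in 7 of the 14 rod promoters that the table held (50%), against 7.06% of all 32851 promoters of the same length, 6.10% of those of measured genes and 13.4% of the promoters of the 100 genes with the highest signal. The rod genes with a match were Cnga1, Cngb1, Gngt1, Guca1a, Gucy2e, Sag and Samd7, and those without were Gnb1, Grk1, Nrl, Pdc, Pde6b, Rgs9 and Slc24a1. Bright genes such as Sag and Nrl thus stand on both sides. TGCTGAC, searched the same way, was found in 5 of 13 crystallin promoters (38.5%: Cryaa, Cryba1, Cryba4, Crybb1 and Cryga). It was found in 4.67% of all promoters and 7.14% of rod promoters. The crystallin genes without a match were Cryba2, Crybb2, Crybb3, Crygb, Crygd, Crygf, Crygn and Crygs. Crystallins that were bright in control 3, such as Cryba1 and Crybb2, thus also stand on both sides. The first matched base lay 87 bases before the start in Sag, 44 in Gngt1, 57 in Guca1a, 108 in Cryaa, 57 in Cryba1 and 84 in Crybb1, and none of these 6 matches overlapped a match of the TATA box (TATAAA), the GC box (GGGCGG), the CCAAT box or the other motif. The GC box was found in 21.4% of rod promoters and 7.69% of crystallin promoters, against 52.3% of those of measured genes and 62.7% of those of high genes. Rod promoters held a median of 4 CpG dinucleotides and promoters of measured genes 16. A match is a description of these letters, not evidence of a bound site.

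Rod genes led the ranking of genes measured by a probe set with 1 symbol. Of the 100 probe sets with the highest signal, 36 had no single symbol and were not ranked, and the highest value on each array apart from array controls came from such a probe set (14.91, 14.99 and 15.17). Of 21 measured genes of rod phototransduction, 17 were high and 1 was dim, with a list median of 14.00 against 8.29 over all genes. The same counts were reached without control 3. Of these genes, 10 stood among the 30 with the highest signal and 13 among the top 100, a group that makes up 0.55% of all genes. Without control 3 the top 30 shared 29 genes with those of all 3 arrays, and 12 rod genes were in the top 100.

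**Figure D1:**
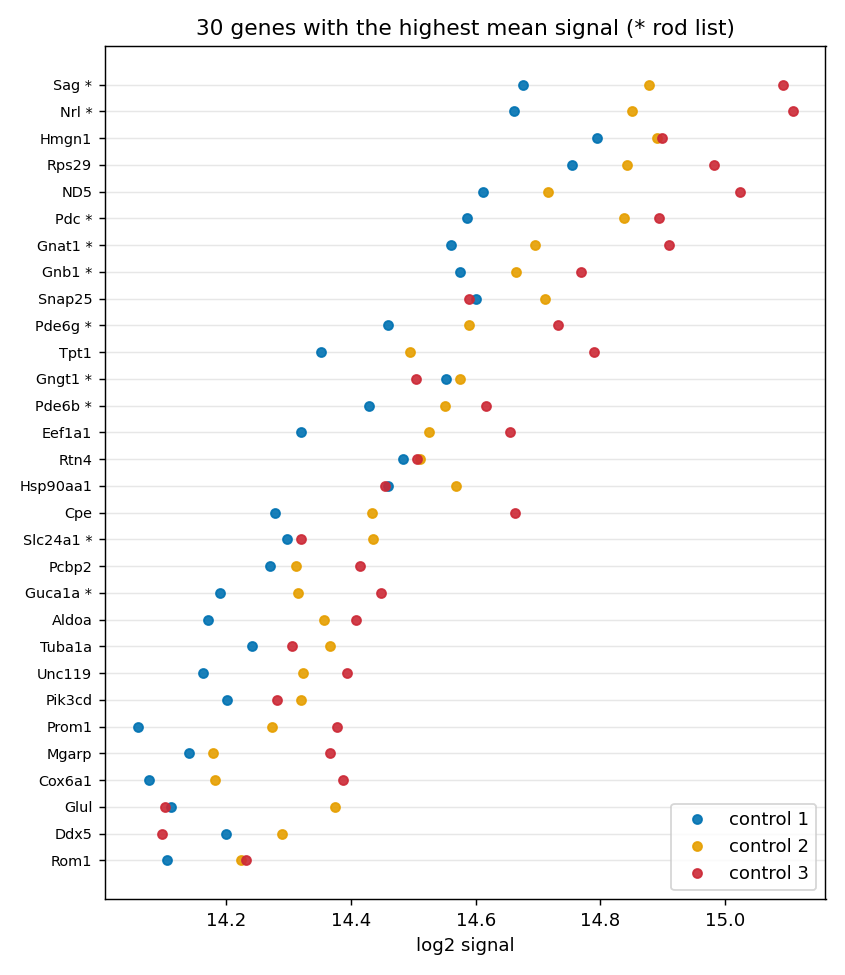
The 30 genes with the highest mean signal, in order of that mean, with the log2 signal of each control array on the horizontal axis as a point and genes of the rod list marked by an asterisk. Sag and Nrl stand at the top at means of 14.88 and 14.87, and control 1 holds the lowest value of 25 of the 30 genes.

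Sag, the arrestin that shuts off rod opsin, gave the highest mean of all 18193 genes, with 14.68, 14.88 and 15.09. Nrl, the leucine zipper factor that directs cells to the rod fate, followed with 14.66, 14.85 and 15.11. Control 1 was lowest and control 3 highest for both. The transducin subunits were also in the top 30, with 14.56, 14.69 and 14.91 for Gnat1 (alpha), 14.57, 14.66 and 14.77 for Gnb1 (beta) and 14.55, 14.57 and 14.50 for Gngt1 (gamma). Pdc, phosducin, which binds transducin beta and gamma, gave 14.59, 14.84 and 14.89.

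The effector of the cascade, cyclic GMP phosphodiesterase, gave 14.43, 14.55 and 14.62 for its catalytic beta subunit Pde6b and 14.46, 14.59 and 14.73 for the inhibitory subunit Pde6g. Its catalytic alpha subunit Pde6a gave 11.82, 11.87 and 11.79, although alpha and beta form the rod enzyme together. Cnga1, the alpha subunit of the cation channel, gave 13.54, 13.58 and 13.54, with the smallest spread of the rod list (SD 0.023). The exchanger Slc24a1, which removes calcium from the outer segment, gave 14.30, 14.44 and 14.32. Calcium feedback was bright as well, with 14.19, 14.32 and 14.45 for Guca1a and 13.83, 14.04 and 14.12 for Guca1b, and recoverin (Rcvrn) had a mean of 13.80.

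Some rod genes had no high signal. Grk1, the rhodopsin kinase, gave 7.59, 7.51 and 7.45, and Rgs9, which speeds the shutdown of transducin, gave 8.26, 8.36 and 8.02. Gucy2e, a guanylate cyclase of photoreceptors, was dim, with 6.29, 3.84 and 6.11. Their partners were bright: Rgs9bp, the anchor of Rgs9, had a mean of 13.56. Grk1 and Gucy2e have 1 probe set each here, so there was no other to compare, and the 3 probe sets of Rgs9 had means within 1.38 of each other.

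Of the top 30 genes, 12 belonged to the rod, outer segment or photoreceptor factor lists and 20 to any list. Hmgn1, a nucleosome-binding protein, gave 14.79, 14.89 and 14.90, and Rps29, a ribosomal protein, gave 14.75, 14.84 and 14.98. The mitochondrial gene ND5, a subunit of complex I, gave 14.61, 14.72 and 15.02. Snap25, a synaptic fusion protein, gave 14.60, 14.71 and 14.59. The remaining genes of the top 30 had means from 14.19 to 14.54: the growth-associated protein Tpt1, the elongation factor Eef1a1, the endoplasmic reticulum protein Rtn4, the chaperone Hsp90aa1, the peptidase Cpe, the RNA-binding proteins Pcbp2 and Ddx5, aldolase (Aldoa), tubulin (Tuba1a), the photoreceptor trafficking factor Unc119, the lipid kinase subunit Pik3cd, the outer segment proteins Prom1 and Rom1, the mitochondrial protein Mgarp, cytochrome oxidase subunit Cox6a1 and glutamine synthetase (Glul). Of the 16 genes among the top 30 with at least 2 probe sets, 13 had a probe set lower by more than 2. The gap was 11.74 for Tpt1 and 11.71 for Pik3cd, so their places rest on the probe set chosen.

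Control 1 had the lowest value in 25 of the top 30 genes and control 3 the highest in 21. After quantile normalisation of the 3 arrays control 3 was highest in 9 and lowest in 17. The order of the arrays among the brightest genes therefore turned with the scaling, and the rod list shows the same: its median difference of control 3 from the mean of controls 1 and 2 was 0.15 as deposited and -0.03 after quantile normalisation.

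Outer segment structure was bright throughout. Of 15 measured genes 13 were high and 0 dim, with a median of 13.02. Prom1, which shapes disc membranes, gave 14.06, 14.27 and 14.38, and the disc rim proteins Rom1 and Prph2 gave 14.11, 14.22 and 14.23 and 13.60, 13.84 and 13.90. The cadherin Cdhr1 at the disc base had a mean of 14.02 and the microtubule protein Rp1 of the axoneme 13.80. The lowest members were Impg1, a proteoglycan of the matrix between photoreceptors, at 10.62, and Fscn2, an actin bundler, at 10.02. Abca4, the outer segment retinoid transporter, had a mean of 13.47.

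Of 13 photoreceptor transcription factors 7 were high and 1 was dim. Besides Nrl, Neurod1 gave 13.91, 13.97 and 13.87, the homeodomain factor Crx 13.74, 13.77 and 13.71 and Otx2 12.73, 12.81 and 12.74. Factors tied to cones gave less signal, with means of 7.48 for Rxrg and 6.06 for Thrb, the thyroid hormone receptor that specifies M-opsin cones, while Sall3 was dim at 5.15.

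Cone genes gave lower signal than rod genes. Of 14 measured, 5 were high (7 without control 3) and 0 dim, with a median of 11.06. Opn1sw, the short-wavelength opsin, gave 13.56, 13.91 and 13.74 and Opn1mw, the medium-wavelength opsin, 10.79, 10.97 and 10.76. Opn1sw has another probe set that lay 5.07 lower, and with the mean of its probe sets it no longer led the 6 opsins measured of 8 named. Cone arrestin, Arr3, gave 12.04, 12.23 and 11.66, lowest in control 3. Melanopsin (Opn4), the photopigment of a few ganglion cells, had a mean of 7.23, and Opn3, an opsin of unsettled function, was dim at 6.01.

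**Figure D2:**
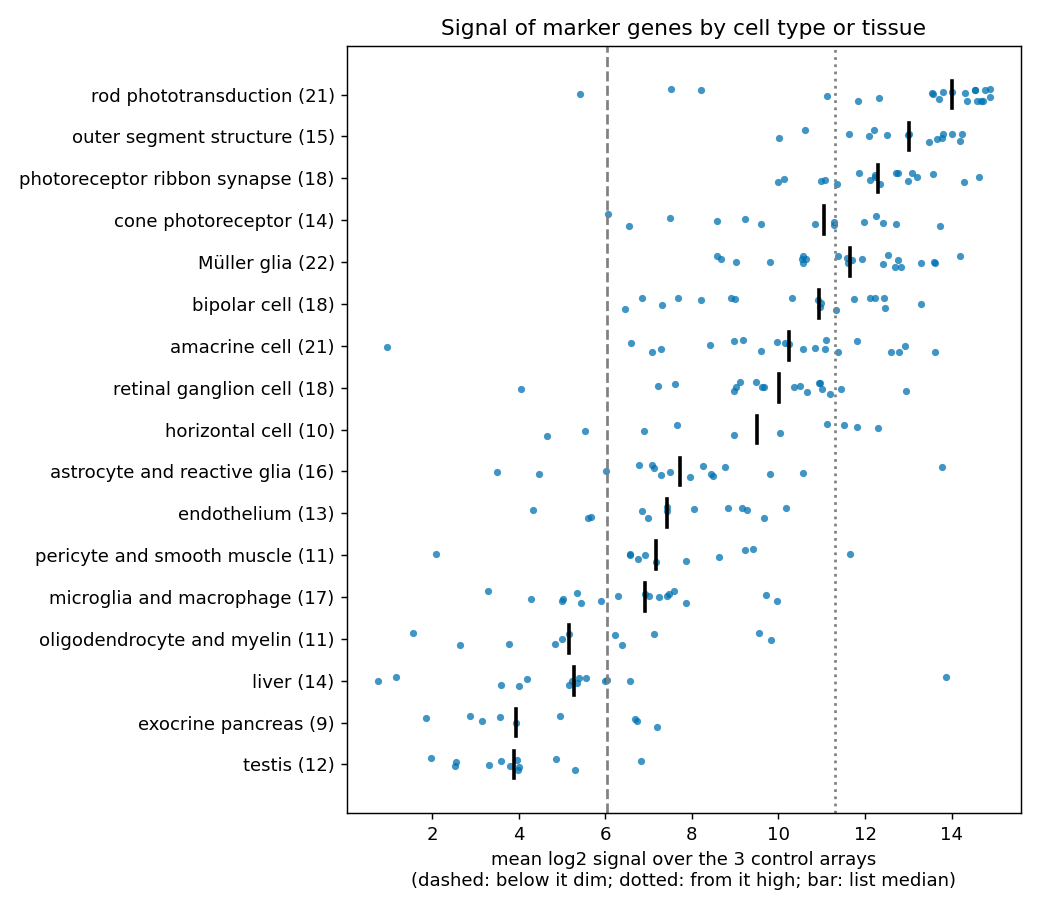
Mean log2 signal over the 3 control arrays (horizontal axis) of each measured marker gene (points) by cell type, structure or tissue, with the number of genes in parentheses, the list median as a bar, and the limits for dim (dashed) and high (dotted). Rod, outer segment and ribbon synapse genes lie mostly past 11.31, and the liver, pancreas and testis genes mostly below 6.04.

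The paralogues of rods and cones fell in the same order on each array. The rod member gave more signal than the cone member for the alpha transducins Gnat1 and Gnat2 (means 14.72 and 12.25), the beta transducins Gnb1 and Gnb3 (14.67 and 12.71), the gamma transducins Gngt1 and Gngt2 (14.54 and 6.55), the inhibitory subunits Pde6g and Pde6h (14.59 and 12.40), the channel subunits Cngb1 and Cngb3 (12.32 and 8.59) and the arrestins Sag and Arr3 (14.88 and 11.98). Among catalytic subunits the cone form Pde6c had a mean of 9.24, below Pde6b at 14.53 and Pde6a at 11.83. These are signals of different probe sets, so their gaps carry no fold. The probe sets of Gnb1 spanned 9.19, and with their mean Gnb3 stood above Gnb1. Gngt2 was the gene whose array values spread most in the cone list, at 7.34, 5.98 and 6.33, and control 2 was under the dim limit.

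Across 34 families with at least 2 measured members, the member with the highest mean was also ahead of the next on all 3 arrays in 31, and on 2 arrays in glutamate uptake, sodium pump beta subunits and gamma crystallins. Slc24a1 led the exchangers, of which Slc24a3 had a mean of 11.84, Slc24a2, the cone form, 9.60 and Slc24a4 8.42. Among complexins, which clamp vesicle fusion, the ribbon synapse forms Cplx4 and Cplx3 had means of 13.00 and 12.24 and the conventional forms Cplx1 and Cplx2 11.19 and 10.79. Stx3, the syntaxin of ribbon synapses, had a mean of 12.35, Stx4a 9.79 and Stx1a, of conventional synapses, 8.94. The beta-arrestins Arrb1 and Arrb2, expressed in most tissues, had means of 10.10 and 9.26.

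**Figure D3:**
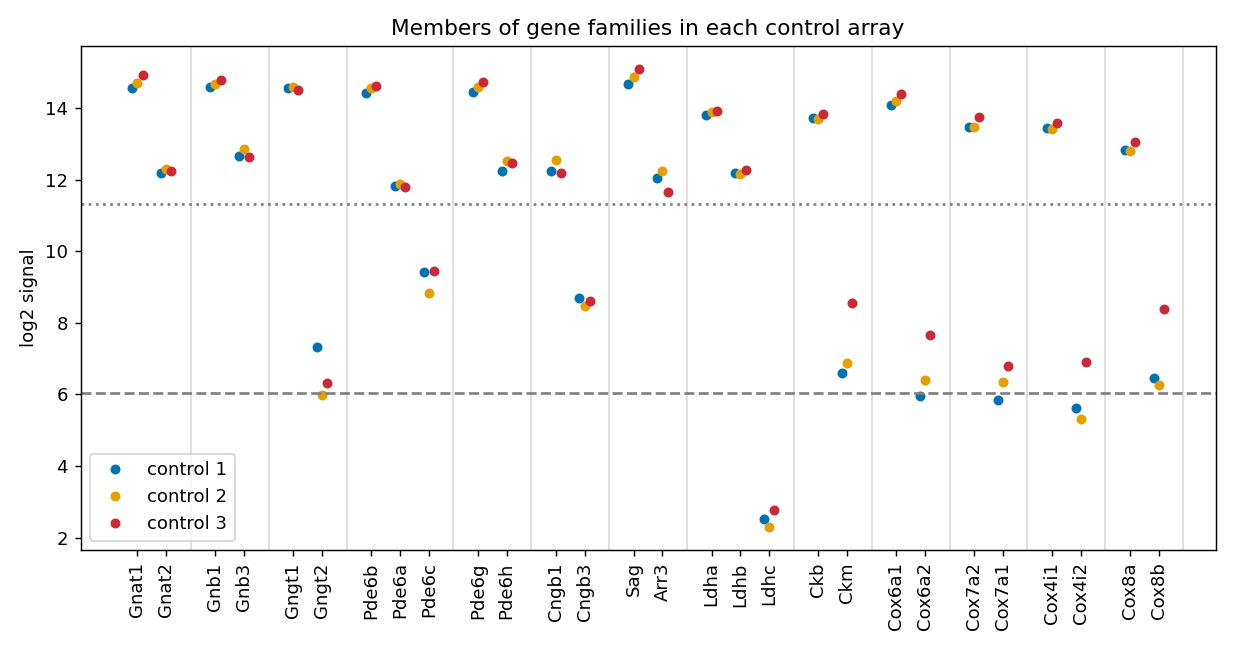
Log2 signal (vertical axis) of members of gene families in each control array (points), grouped by family, with the limits for dim (dashed) and high (dotted). Rod forms stand above cone forms in each array, and Ckm, Cox6a2, Cox7a1, Cox4i2 and Cox8b are highest in control 3.

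The ribbon synapse list was high in 14 of 18 genes and dim in 0, with a median of 12.29. Unc119 gave 14.16, 14.32 and 14.39, the vesicle protein Sv2b had a mean of 13.57 and Ctbp2, whose product includes the ribbon protein RIBEYE, 13.19. The lowest members were the scaffold Bsn at 10.13 and the vesicular glutamate transporter Slc17a7 at 10.00. Slc17a6, the transporter used by ganglion cells, had a mean of 10.51, and with the mean of its probe sets it fell behind Slc17a7.

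Bipolar cell genes were high in 7 of 18 and dim in 0, with a median of 10.93. Pcp2, a modulator of G proteins in ON bipolar cells, gave 13.37, 13.31 and 13.20, and Prkca, protein kinase C alpha of rod bipolar cells, 12.75, 11.95 and 12.65, lowest in control 2. Gng13, a G protein gamma subunit of ON bipolar cells, had a mean of 12.43 and Isl1, a homeodomain factor, 12.22. The lowest members were Gpr179, a scaffold of the mGluR6 cascade, at 7.13, 7.09 and 6.35, and Grik1, a kainate receptor subunit of OFF bipolar cells, at 7.13, 6.59 and 5.63. Both were lowest in control 3.

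Of 21 amacrine genes 6 were high and 1 was dim, with a median of 10.25. Gad1, which makes GABA, gave 13.69, 13.62 and 13.52, the noncoding RNA Meg3 had a mean of 12.92, calretinin (Calb2) 12.78 and Pax6 12.59. Genes of sparse amacrine types gave little signal, with means of 7.28 for tyrosine hydroxylase (Th) of dopaminergic cells and 6.59 for choline acetyltransferase (Chat) of starburst cells. The choline transporter Slc5a7 was dim at 0.96.

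Horizontal cell genes were high in 3 of 10 and dim in 2. Septin4 had a mean of 12.31, Tfap2b, shared with amacrine cells, 11.81, calbindin (Calb1) 11.51 and Tpm3, which many cells express, 11.11. The horizontal cell factor Onecut1 was dim at 4.65 and the connexin gene Gja10 at 5.52.

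Of 18 ganglion cell genes 2 were high (11.1%, near the 10% of all genes) and 1 was dim, with a median of 10.00. The count of high genes was 8 with the probe sets of a gene averaged and was 4 of 17 without probe sets of shared transcripts. Neurofilaments, which fill the axons of ganglion cells, fell in the order Nefl at 12.83, 13.01 and 12.96, Nefm at 11.46, 11.66 and 11.22 and Nefh at 10.30, 10.42 and 10.34. Uchl1, a neuronal deubiquitinase, had a mean of 11.19 and the surface protein Thy1 11.01. Pou4f3, a factor of a ganglion cell subset, was dim with 4.72, 5.46 and 1.97.

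Müller glia genes were high in 14 of 22 (13 without control 3) and dim in 0, with a median of 11.66. Glul, which turns glutamate into glutamine, gave 14.11, 14.37 and 14.10, and carbonic anhydrase Car2, also made by other retinal cells, 13.53, 13.70 and 13.65. Clu, a secreted chaperone, gave 13.33, 13.31 and 14.16 and Rlbp1, which carries retinal, 13.34, 13.34 and 13.21. Vim, the intermediate filament vimentin, gave 11.56, 11.44 and 12.80. Clu and Vim were highest in control 3, where genes of lens and connective tissue were also raised, and the part of those tissues in them was not tested. The factors Hes1 and Sox9 had the lowest means, 8.68 and 8.59.

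Among 16 astrocyte and reactive glia genes 1 was high (6.25%, near the 10% of all genes). It was Aldoc, an aldolase that Müller cells and neurons also express, at 13.77. Ceruloplasmin (Cp) gave 9.93, 10.30 and 11.50, Stat3 had a mean of 9.81 and the cytokine receptor Osmr 8.78. Gfap, the filament of astrocytes and reactive Müller glia, gave 6.15, 7.25 and 6.91. The cytokine Lif and the growth factor Fgf2 were dim at 4.46 and 3.50. Edn2, endothelin 2, known to rise in stressed photoreceptors, gave 8.18, 6.53 and 7.81, so its signal varied among control pools. With values under the dim limit raised to it, this was the fourth largest difference between controls 1 and 2 over all genes. Without that floor, dim genes such as Mip differed more.

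Of 17 microglia and macrophage genes 0 were high and 7 dim (41.2%, against 30.2% of all genes), led by the protease Ctss at 9.97, the receptor Csf1r at 9.71, the lysosomal protein Laptm5 at 7.85 and the complement chain C1qa at 7.58, with Tmem119 at 4.28 and Itgam at 3.28. Endothelium had 0 of 13 high and 3 dim (23.1%), with the VEGF receptor Kdr at 10.17 and Pecam1 at 5.68. In a list of this size these counts lie near the 10% and 30.2% of all genes. Rgs5, a pericyte regulator of G proteins, was the only one of 11 pericyte genes called high, at 11.66, and 1 was dim. These pericyte shares, 9.09% each, lay near the 10% of all genes for high signal and under the 30.2% for dim signal.

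Myelin genes were high in 0 of 11 and dim in 6 (54.5%). Mouse optic fibres are not myelinated within the retina. Cnp and Mbp, which also have forms outside myelin, had means of 9.84 and 9.56, while Olig2 and Mog, of the oligodendrocyte lineage, were dim at 2.64 and 1.57. Erythrocyte genes were dim in 5 of 6. The alpha globin probe set assigned to Hba-a2 gave 7.43, 7.52 and 7.46 and that of the near-identical copy Hba-a1 was dim, so these 2 should be read as 1 uncertain gene.

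Genes of distant organs set the lower end of the scale. Testis genes were dim in 11 of 12, liver genes in 11 of 14 and exocrine pancreas genes in 6 of 9. Of 70 olfactory and vomeronasal receptor genes 67 were dim and 0 high, with a median of 3.79. The only high liver gene was Ttr, transthyretin, which the pigment epithelium makes, at 13.70, 13.18 and 14.71, and 2 liver genes were neither high nor dim.

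Energy genes were bright, and tissue isoforms separated. Of 26 glycolysis genes 16 were high and 3 dim, with a median of 12.38, and of 40 respiratory chain and ATP synthase genes 32 were high and 1 dim, with a median of 12.41. Aldoa gave 14.17, 14.36 and 14.41, triosephosphate isomerase (Tpi1) had a mean of 13.89 and Pgk1 13.85. Lactate dehydrogenase A (Ldha) gave 13.80, 13.89 and 13.93, Ldhb 12.19, 12.17 and 12.26 and the sperm form Ldhc 2.51, 2.31 and 2.77. The sperm form Pgk2 was dim at 1.98. Slc16a1, a lactate carrier, had a mean of 13.44, Slc16a8, the carrier of the pigment epithelium, 8.82, Slc16a3 7.33 and Slc16a7 5.71.

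Hexokinases Hk1 and Hk2 were both high, at 12.98 and 12.60, and Hk3, of blood cells, had a mean of 6.51. Phosphofructokinase was high for Pfkp at 13.40 and Pfkl at 11.88, with the muscle form Pfkm at 10.91. Glucose transporters Slc2a1 and Slc2a3 had means of 12.55 and 12.05 and the insulin-regulated Slc2a4 6.99. Brain creatine kinase (Ckb) had a mean of 13.75 and mitochondrial Ckmt1 11.12, while neuronal enolase (Eno2) had 13.18 and Eno3, of muscle, 9.82.

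Cytochrome oxidase showed the same split, with means of 14.22 for Cox6a1, 13.56 for Cox7a2, 13.49 for Cox4i1 and 12.90 for Cox8a, and of 7.03 for Cox8b, 6.67 for Cox6a2 and 6.33 for Cox7a1, the heart and muscle forms, and 5.96 for Cox4i2, of lung and low oxygen. Cox8b gave 6.46, 6.25 and 8.38, Ckm, muscle creatine kinase, 6.61, 6.89 and 8.56 and Ckmt2, the mitochondrial muscle form, 4.77, 3.05 and 6.99. Control 3 was highest for each of these 3 genes. It also held more signal of the skeletal muscle list, of which Ckm is itself a member. The part of muscle in these values was not tested.

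Of 28 ribosomal and elongation genes 24 were high, with a median of 13.34. Eef1a1 had a mean of 14.50 and the neuron and muscle form Eef1a2 11.54. The tissue-restricted ribosomal genes Rpl3l and Rpl39l were dim, at 4.61 and 4.55. Chaperones were high in 11 of 17 and dim in 0, with Hsp90aa1 at 14.49, Hspa8 at 13.87, Hsp90b1 at 12.96 and Calr at 12.80, and with Hspb1 at 9.39 and Hspb8 at 7.96 at the lower end.

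Of 13 ion pump genes 7 were high. Slc12a5, the neuronal chloride extruder, had a mean of 14.03. The sodium pump beta subunits Atp1b2, the form that anchors retinoschisin to photoreceptors, and Atp1b1 were close: 13.33, 13.19 and 13.70 against 13.10, 13.43 and 13.42, so their order differed between arrays and they did not differ beyond their spread. Atp1b3 gave 11.45, 11.35 and 12.40 and Atp1b4 was dim at 1.20. Glutamate uptake genes Slc1a2 (mean 11.60), Slc1a7 (11.40) and Slc1a3 (10.65) were followed by Slc1a1 (9.92), and Slc1a2 and Slc1a7 also changed order between arrays.

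Antioxidant genes were high in 6 of 23, led by the lipid peroxidase Gpx4 at 13.50, which photoreceptors need, and Sod1 at 12.68. Hmox1, heme oxygenase, was dim at 4.94. Metallothioneins had means of 11.54 for Mt1, 10.62 for Mt2, 8.35 for Mt3 and 2.27 for Mt4. Of 14 lipid genes 7 were high, with Elovl4, which makes the very long chains of outer segment lipids, at 13.81.

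Of 16 clock genes 4 were high and 1 was dim, with Nr1d2 at 13.34 and Dbp at 12.41, both transcription factors of the clock output, and Aanat, the enzyme of melatonin synthesis, at 6.60, 6.33 and 4.67. BALB/c mice are known to make little melatonin, and the time of day of the dissection is not stated. The dopamine D4 receptor Drd4, a photoreceptor gene under clock control, gave 12.04, 12.01 and 12.04. Of 19 glutamate receptor and transporter genes 3 were high (15.8%). Of 11 GABA and glycine receptor genes 0 were high and 0 dim, with means from 8.34 for Gabrb1 to 11.27 for Gabbr1. In lists of this size both counts of high genes lie near the 10% of all genes, and 30.2% of all genes were dim. Metabotropic glutamate receptors ran from Grm7 at 9.45, Grm8 at 8.95, Grm5 at 8.35 and Grm2 at 8.01 to Grm3 at 6.34.

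The pools differed most in genes of the lens. Each array was set against the mean of the other 2, after values under the dim limit were raised to it, and differences of 4-fold (2 on the log2 scale) were counted. No p-value is possible, because the single array has no replicate. Control 3 was higher for 87 of 18193 genes (0.478%) and lower for 2 (0.011%). Control 1 was higher for 0 genes (0%) and lower for 18 (0.0989%), and control 2 was higher for 1 (0.0055%) and lower for 19 (0.104%). Of the genes lower in controls 1 and 2, 17 and 19 were among those higher in control 3, so they repeat its difference. Set against each of the other arrays in place of their mean, control 3 was higher for 75 genes.

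Lens crystallins made up 13 of the 87, out of 14 measured. Cryaa gave 5.33, 3.04 and 14.66, Cryba1 6.64, 5.87 and 14.69, Crygs 6.46, 2.93 and 14.59 and Crybb2 7.69, 6.58 and 14.75. In control 3 these were among the 100 genes with the highest signal, and in controls 1 and 2 they gave at most 7.69. Cryba2 gave 3.79, 5.55 and 13.96, Crybb1 2.18, 2.45 and 13.16, Cryba4 5.45, 1.75 and 12.86 and Crybb3 6.86, 6.62 and 11.91. Of the gamma crystallins, Crygb gave 6.77, 5.33 and 13.17, Crygd 2.92, 5.19 and 11.97, Crygf 5.32, 1.82 and 8.52 and Crygn 2.34, 3.47 and 8.86. Cryga, the remaining crystallin, gave 1.17, 2.24 and 6.82 and did not pass 4-fold after the floor. Control 3 held 6 crystallins among its 100 brightest genes, and controls 1 and 2 held 0.

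Cryab, alphaB-crystallin, which is also a small heat shock protein of glia and other cells, gave 10.47, 10.25 and 14.80, so its signal in controls 1 and 2 was higher than that of any other crystallin. Its other probe sets lay up to 7.28 lower. With control 3 left out, 10 of 14 crystallins were dim and the list median fell from 7.72 to 4.43. The promoter starts used for Cryba4 and Crybb1 lie head to head on chromosome 5 in GRCm38.p6, 3302 bases apart, and both promoters held TGCTGAC. The full annotated spans of these genes overlap.

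Of 14 other lens genes 6 were higher in control 3. Mip, the water channel of lens fibres, gave 4.08, 0.54 and 11.29, the lens galectin-related protein Grifin 6.20, 6.26 and 11.94 and the fibre membrane protein Lim2 6.04, 5.06 and 10.29. The beaded filament genes Bfsp1 and Bfsp2 gave 5.35, 3.00 and 9.43 and 4.91, 5.76 and 9.73. Foxe3, a factor of the lens epithelium, was dim on all arrays (3.22, 3.63 and 2.96), and Tdrd7, a granule protein that many cells express, was high on all (12.87, 12.98 and 13.00).

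**Figure D4:**
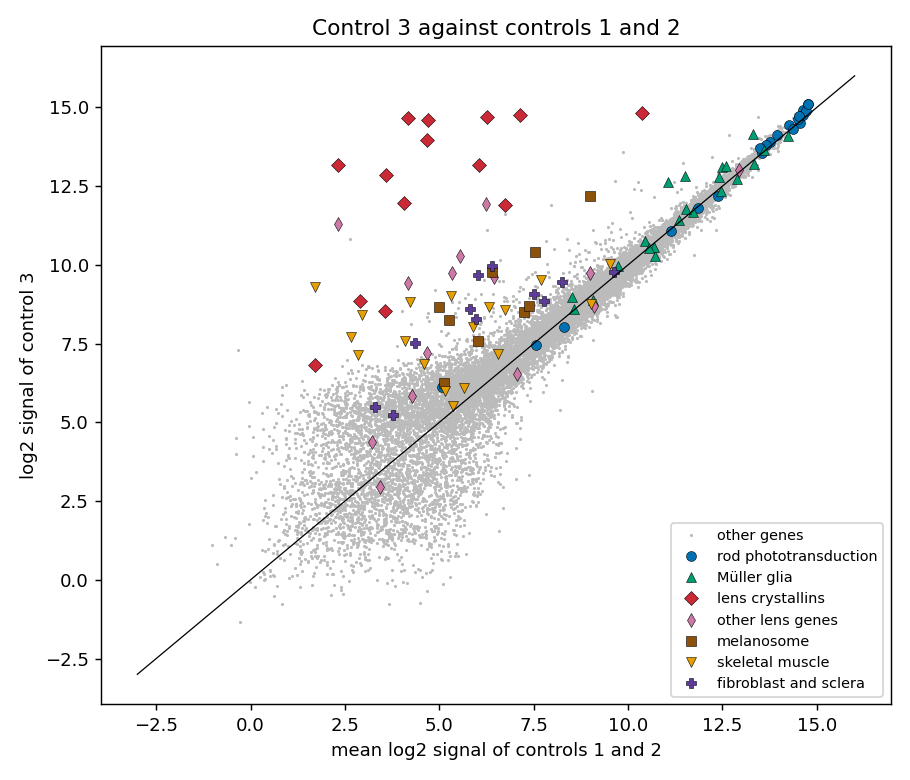
Log2 signal of control 3 (vertical axis) against the mean of controls 1 and 2 (horizontal axis) for all 18193 genes, with equality as a line and 7 gene lists in colour. Crystallins lie far above the line, most melanosome, muscle and fibroblast genes above it, and rod and most Müller glia genes close to it.

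Some genes of melanosomes, muscle and connective tissue were also brighter in control 3. Of 9 melanosome genes 5 passed 4-fold: Dct gave 9.09, 8.88 and 12.19, Tyrp1 7.73, 7.33 and 10.40 and Pmel 6.22, 6.55 and 9.78, with Mlana at 4.89, 5.07 and 8.65 and Tyr at 4.32, 6.16 and 8.25. Albino eyes keep pigment cells although these make no melanin. Of 12 pigment epithelium genes 0 passed 4-fold, near the 0.478% of all genes, and 6 passed 2-fold, against 324 of all 18193 genes. Rpe65, the isomerase of the visual cycle, gave 10.34, 9.73 and 11.67 and Stra6, the retinol transporter, 5.96, 4.15 and 7.90. Best1 was dim at 2.93. Rpe65 was above the dim limit in all 3 pools, although the tissue is labelled as free of pigment epithelium.

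Of 18 skeletal muscle genes 5 passed, among them Myh4, a fast myosin (0.76, 2.63 and 9.29), and Atp2a1, the calcium pump of fast fibres (5.49, 5.13 and 9.02). Of 11 fibroblast genes 4 passed, with the proteoglycans Ogn at 6.65, 6.15 and 9.98 and Dcn at 5.99, 5.64 and 8.61. Of 10 cornea genes 1 passed, with a median difference of 0 for the list, and of 11 ciliary body and iris genes 1 passed, with a median difference of 0.53. Aldh3a1, abundant in the corneal epithelium, was the cornea gene, at 0.63, 4.64 and 10.82, while the corneal keratin Krt12 gave 6.69, 5.34 and 5.75. The connexin Gja1, of the ciliary body list, gave 8.28, 7.61 and 11.89.

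The summed linear signal of each list, as a log2 value, was 11.10, 10.68 and 17.49 for crystallins, 10.30, 10.34 and 13.08 for melanosome genes and 11.09, 10.95 and 12.59 for muscle genes. It was 18.23, 18.36 and 18.46 for rod genes, 15.55, 15.41 and 15.47 for bipolar genes and 16.67, 16.71 and 16.94 for Müller genes. Of the rod, cone, bipolar, amacrine, ganglion and Müller cell lists, 0 genes passed 4-fold in either direction in control 3. Over all genes 0.478% were higher and 0.011% lower, so 0 in lists of this size lies near those shares. At 2-fold 2 of 22 Müller genes were higher in control 3, against 324 of all 18193 genes. Of the 87 genes, 35 were in lists of neighbouring tissue (of 105 such genes), 2 in other lists alone (Gpx3 and Cox8b) and 50 in none, and 32 of the 87 were dim in controls 1 and 2.

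The 50 unlisted genes were led by Nupr1, a stress-induced nuclear protein, at 6.77, 6.73 and 11.61, and Nid1, a basement membrane protein, at 6.16, 6.35 and 11.10. Igfbp7, a secreted binding protein, gave 9.97, 9.78 and 13.58. The calcium-binding protein S100a4 gave 6.53, 6.66 and 10.16 and Col6a3, a collagen of connective tissue, 6.11, 6.26 and 9.51. In what tissue these 50 genes were transcribed was not tested.

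In the other direction Zap70, a kinase of T cell signalling, gave 8.50, 9.57 and 5.99 and was lower in control 3 by 4-fold, as was the predicted gene Gm5802 (8.16, 8.24 and 5.40). Zap70 was also the only gene higher in control 2. Other falls in control 3 were smaller. Syt5, a synaptotagmin, gave 7.56, 7.95 and 5.95, Cpt1a, of fatty acid import into mitochondria, 11.90, 11.57 and 10.32, and Spock3, an extracellular proteoglycan, 9.38, 10.00 and 8.33. Plekhn1 (8.30, 8.17 and 6.35), Adam4 (7.79, 7.88 and 6.17), Cpne9 (7.94, 8.81 and 6.92) and Cpox, of heme synthesis (9.67, 9.74 and 8.35), were also among the 10 largest.

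In control 1 the largest positive differences were of genes near the dim limit, such as Sgsm3 (7.62, 5.78 and 6.08), Rassf3 (7.94, 6.32 and 6.86) and Capn1, a calpain (7.32, 6.06 and 6.01). Bmpr1b, a receptor of bone morphogenetic proteins, gave 9.01, 7.93 and 7.86. In control 2, Pnmt, which makes adrenaline, gave 6.32, 7.72 and 4.97, and Macroh2a2, a histone variant, 7.23, 9.36 and 8.95. Macroh2a2 departed more in control 1 (-1.93 from the mean of the others) than in control 2 (1.27). Controls 1 and 2 were 4-fold apart for 2 genes, against 87 for controls 1 and 3 and 91 for 2 and 3, counted over all genes after values under the dim limit were raised to it.

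The spread between pools shrank as signal grew. The median SD over the 3 arrays was 1.27 in the lowest 20% of the genes by signal, 0.21 from 40 to 60%, 0.087 from 90 to 99% and 0.095 in the top 1%. Over all genes it was 0.22 and over those not dim 0.15, or 0.10 without control 3. Of the genes that were not dim, 6.44% ranged over at least 2-fold. Rod genes that were not dim had a median SD of 0.11 and outer segment genes 0.093, and in both 0 genes ranged that far. Most genes of these lists were high. Only 0.61% of all genes from 90 to 99% and 0.55% of the top 1% ranged that far, so 0 lies near those shares. The rod and outer segment SDs were likewise not clearly below the 0.087 and 0.095 of those classes.

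**Figure D5:**
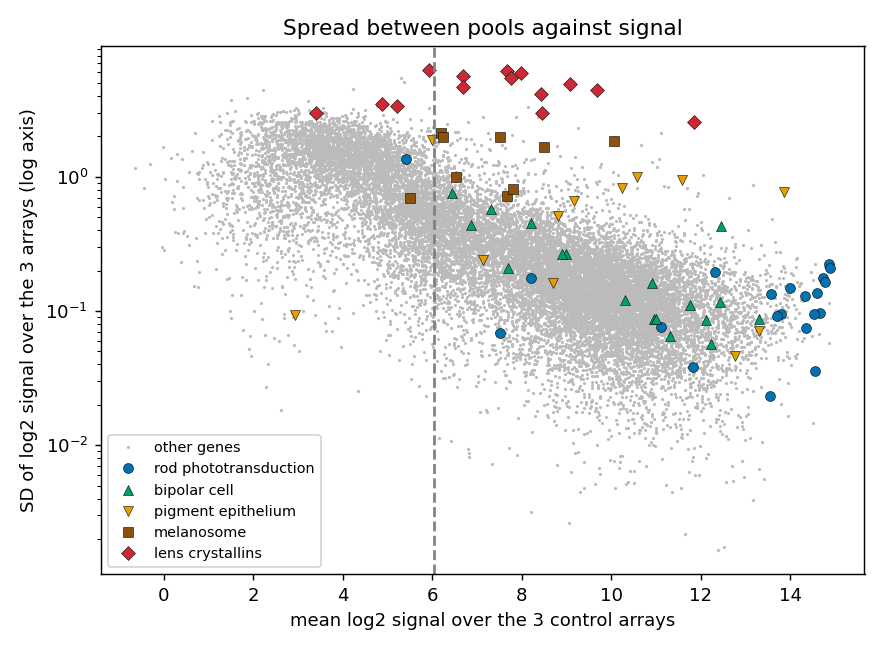
SD of the log2 signal over the 3 control arrays (vertical log axis) against the mean signal (horizontal axis) for all genes, with 5 lists in colour and the dim limit dashed. The SD of most genes falls with signal, and crystallins, with SD from 2.57 to 6.26, lie above genes of like signal.

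Few high genes varied. Cryab had the widest range of them, followed by Rgr, a retinal G protein coupled receptor of Müller and pigment epithelium cells, at 11.31, 10.79 and 12.62. Fabp5, a fatty acid carrier, gave 11.44, 11.47 and 13.24, Ptgds, prostaglandin D synthase, 12.96, 12.41 and 14.11 and Sparc, a matrix protein, 11.13, 11.30 and 12.64. All were highest in control 3, and the part of the tissues above in them was not tested. The mean behind the high limit holds control 3. Cryab, Rgr and Sparc were under that limit in controls 1 and 2 (Rgr only just in control 1), so their place here rests on control 3. P4htm, a prolyl hydroxylase, went the other way, at 12.34, 12.33 and 11.10.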

How the data were processed

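Retinal RNA of 3 control pools had been hybridised to Affymetrix mouse expression arrays. The deposited table gave, per the submitters' processing notes, MAS5-type signals (tools MAS5 and affy, no version). The deposited log2 unit was read from the values: as powers of 2 they had a 2% trimmed mean of 500 on each array. Of 45101 probe sets, 34945 had 1 gene symbol in the platform annotation, 932 several, 9160 none and 64 were controls, and 34741 were matched to RefSeq in GRCm38.p6. Each value is thus relative to the mean of its array. The number of arrays limits the precision, and detection calls were not analysed here.

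From these values means, SD, ranks, list counts and differences of each array from the other 2 were computed with Python 3.11.15, numpy 2.4.6 and pandas 2.3.3, and figures were drawn with matplotlib 3.10.9. No p-value was computed, since there is 1 group. Of 653 genes named in 41 lists, 590 were measured. The lists, the 36 families and the pattern of control 3 were chosen with earlier results of these data known. Named are the top 30 genes, up to 4 highest and 2 lowest of a list, family members and the 10 largest differences per array and direction, without predicted genes. Genes outside this rule, such as Rcvrn, Rgs9bp, Rgs9, Rxrg, Th, Gfap, Edn2, Pecam1, Rpe65, Gm5802 and members of the lens, muscle and connective tissue lists, were chosen after their values were seen. Promoters were taken from RefSeq (GRCm38.p6), which held 14 of 21 rod and 13 of 14 crystallin genes. Alternatives were averaging the probe sets of a gene, probe sets with unique names alone, quantile normalisation, other limits for dim and high, other floors and folds, linear means, leaving out each array and, added after the data were seen, the difference from each other array and array correlations over other sets of genes.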

Additional observations from a re-analysis of the deposited data

How the results depend on the processing

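No paired analysis was possible because 1 group was described and its results come from no test. Of the main results under all settings, 178 values stayed within 1.5 times of the reported count, or within 1 SD, and 37 moved. Of the others 849 stayed and 164 moved. With probe sets of a gene averaged, high genes numbered 8 for cones, 9 for the ribbon synapse and 8 for ganglion cells, and the median SD was 0.18. Without probe sets of shared or multiple transcripts, which left fewer genes measured, high genes numbered 4 for ganglion cells (17 measured), 8 for Müller glia (16), 6 for glycolysis (19), 19 for the respiratory chain (31) and 6 for the ribosome (15), and 1 gene was lower in control 3. With the 25th percentile as the dim limit, dim genes numbered 3 for myelin, 2 for microglia, 1 for crystallins, 3 for muscle and 5 for liver. With the 95th percentile as the high limit, 1 ganglion cell and 9 Müller genes were high. With the log2 of linear means 1 crystallin and 5 muscle genes were dim. With no floor 802 genes were higher and 478 lower in control 3, 364 higher in control 1 and 468 in control 2. With a floor at the 25th percentile 11 were lower in control 3, 5 higher in control 1 and 6 in control 2. At 2-fold 324 were higher and 39 lower in control 3, 28 higher in control 1 and 46 in control 2. Against each other array 0 genes were higher in control 2. Leaving out 1 array, dim crystallins numbered 2 to 10 (10 without control 3), genes lower in control 3 numbered 1 to 2, and the median SD was 0.10 to 0.14 (0.10 without control 3). The leading family member was the same in 25 of 34 families with the mean of probe sets. Without shared probe sets it was the same in 25, 5 families had under 2 members measured, 3 no longer had their leading member measured and metallothioneins had another. It was the same in 33 without control 2 or without control 3, and in all 34 under quantile normalisation or without control 1. With the mean of probe sets it changed for beta transducin, opsins, vesicular glutamate transporters, glutamate uptake, sodium pump beta, hexokinase, phosphofructokinase, metallothioneins and metabotropic receptors. Signals under the dim limit had no reliable order.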
